A study of Mus musculus with 3 samples.

Results

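The cells described here were tumor-infiltrating CD8+ T cells that carried transcripts of *Tcf7*, selected on their own *Tcf7* counts. Cells with 5000 to 120000 unique molecular identifiers (UMIs, each a counted mRNA molecule) and at most 20% mitochondrial UMIs were kept. A cell was chosen by 2 values, at least 2 *Tcf7* UMIs and at least 1 *Tcf7* UMI per 5000 UMIs. This gave 2643 of 26899 kept cells, out of 31026 deposited barcodes. The cells came from 3 single-cell RNA libraries, 1 per treatment, made from B16F10 melanomas taken on day 18 after tumor injection. All transferred cells were Thy1.1+ pmel cells, which carry a transgenic T cell receptor (TCR) for the melanoma antigen gp100. They were preconditioned in culture with gp100 peptide and a cytokine, transferred into irradiated C57BL/6 mice, and sorted from the tumor as live Thy1.1+CD8+ cells under the low-dose regimen. The cytokines were sIL-2, an engineered "super" IL-2 with high affinity for IL-2Rβ; IL-2/21-Trikine, which joins sIL-2 to an IL-21Rα-binding mutant of IL-21; and sIL-2 + IL-21. The IL-2/21-Trikine group (below, the Trikine library) had Trikine in culture and as later dosing. The sIL-2 + IL-21 group (below, the combination library) had both cytokines in culture only and was dosed with sIL-2 alone, as was the sIL-2 group. The sIL-2 and combination libraries therefore differed in preconditioning, and the Trikine library differed from both in preconditioning and in dosing. The number of mice pooled into each library is not given in the sources used here, so each treatment counts as 1 sample, and no test between treatments was possible.

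*Tcf7* encodes TCF-1, an HMG-box transcription factor that binds DNA with β-catenin or Groucho/TLE partners. In CD8+ T cells it is high in naive and central memory cells and in the progenitor cells of chronically stimulated responses, which self-renew and give rise to *Tcf7*-negative effector and terminally exhausted cells. Progenitor cells of this kind are known for *Slamf6* and *Il7r* and for low *Havcr2* and granzymes. The T cell label was checked against the CD3 genes. Of the 2643 *Tcf7*-expressing cells, 100% in each library carried a CD3 UMI. The pmel β chain segment *Trbv14* was detected in 97.1%, 96% and 95% of them in the sIL-2, Trikine and combination libraries.

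*Tcf7*-expressing cells made up 1006 of 7279 cells with sIL-2, which is 13.8% (exact binomial 95% interval 13.0 to 14.6). They made up 1201 of 10729 cells with the Trikine, 11.2% (10.6 to 11.8), and 436 of 8891 cells with the combination, 4.90% (4.46 to 5.37). The share was thus lowest after the combination preconditioning. It was 2.82 times as large with sIL-2 (95% interval 2.53 to 3.14) and 2.28 times as large with the Trikine (2.05 to 2.54). These intervals cover counting error within 1 library each, not the spread between mice. As *Tcf7* chose the cells, shares and levels of *Tcf7* are descriptions. Summed over all kept cells, *Tcf7* stood at 60.0 CPM (95% Poisson interval 58.7 to 61.4) with sIL-2, 58.9 (57.8 to 60.1) with the Trikine and 20.6 (19.9 to 21.3) with the combination. CPM is the usual scale of UMIs per library total, and it sets levels of 1 gene side by side between sums, not levels of different genes.

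Because the median depth of kept cells differed (13631, 12260 and 15421 UMIs), each cell was also thinned to 5000 UMIs. The share with at least 2 *Tcf7* UMIs was then 9.19% with sIL-2, 7.36% with the Trikine and 3.60% with the combination. The gap between the sIL-2 and Trikine libraries was smaller with at least 1 thinned UMI, where the shares were 24.1% and 23.3%, a ratio of 0.963 (0.913 to 1.02), against 11.1% with the combination. No sorted cell type lacking T cell RNA was at hand to measure free *Tcf7* RNA. Of 5 myeloid-like cells with at most 1 CD3 UMI, 0 had a thinned *Tcf7* UMI (exact 95% interval up to 52.2%). A larger group, 42 cells with at least 20 UMIs of myeloid marker genes (median 23847.5 UMIs, 95.2% of them with a CD3 UMI), had 2.38% (0.0603 to 12.6) with at least 2 thinned *Tcf7* UMIs and 26.2% (13.9 to 42.0) with at least 1. The share with at least 1 thinned *Tcf7* UMI was thus not lower in this larger group than in the T cells, and the part of free RNA in the shares was not tested.

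**Figure D1:**
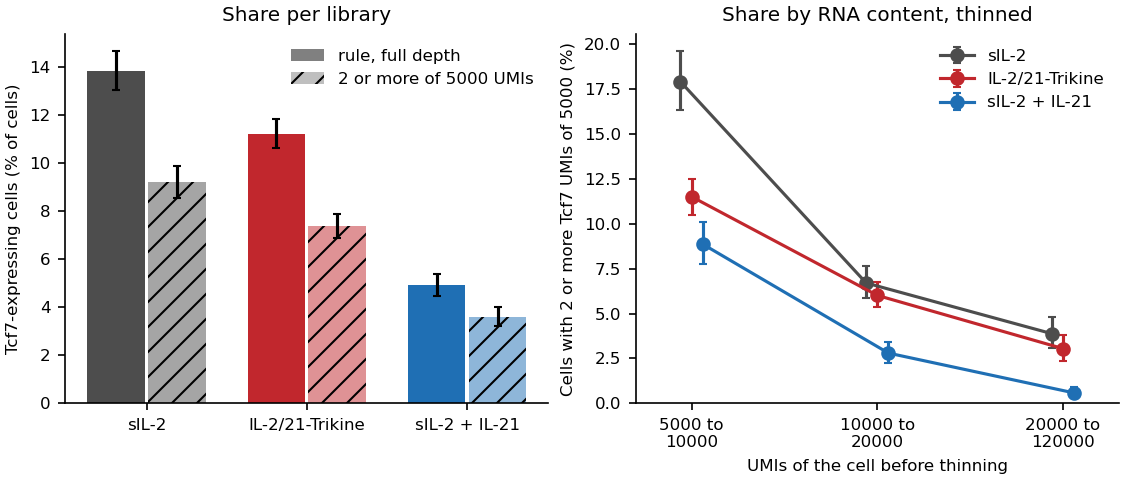
Share of kept cells that met the *Tcf7* rule in each library (left, percent of cells with exact binomial 95% intervals, as counted and after thinning to 5000 UMIs) and in 3 bands of depth (right, percent after thinning). The combination library is lowest in both panels, and the share falls with depth in all 3 libraries.

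Within a library, *Tcf7*-expressing cells lay among the smaller cells. In the sIL-2 library 17.9% (16.3 to 19.6) of the cells with 5000 to 10000 UMIs had at least 2 *Tcf7* UMIs after thinning, against 6.70% at 10000 to 20000 and 3.88% above 20000. The corresponding shares were 11.5%, 6.01% and 3.05% with the Trikine and 8.86%, 2.80% and 0.584% with the combination. Without thinning they were 27.8%, 10.0% and 4.99%, then 18.2%, 8.88% and 3.83%, then 13.1%, 3.34% and 0.552%. In every band the sIL-2 library was highest and the combination library lowest. The chosen cells held a median of 3 *Tcf7* UMIs (range 2 to 26) and a median *Tcf7* level of 323 CPM (quartiles 254 and 437), and 30.5% of them had exactly 2. At the threshold of 200 CPM, 275 cells lay within 10% above and 257 cells with 2 or more UMIs lay within 10% below, the closest at 200.09 and 199.95 CPM. The 2643 cells held 55.7%, 47.5% and 46.0% of all *Tcf7* UMIs of their libraries. Of the remaining cells, 6325 had some *Tcf7* but missed the rule and 17931 had none.

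To learn what else these cells expressed, each was paired with a cell of the same library that had 0 *Tcf7* UMIs and a total within 10% of its own. UMIs were summed over the cells of each kind, giving 6 sums from 3 libraries. In the sIL-2 library the paired cells had medians of 9329 and 9328 UMIs, in the Trikine library 9201 and 9203, and in the combination library 8440 and 8440.5. A gene was called at an adjusted p of at most 0.05 (edgeR quasi-likelihood test with a term for the library, Benjamini-Hochberg adjustment over 11581 genes, *Tcf7* left out) and a log2 fold change of at least 0.5 in size. Of all genes tested, 461 (3.98%) were called higher in *Tcf7*-expressing cells and 503 (4.34%) lower, and 444 and 481 of these had the same sign in all 3 libraries. These p-values measure how alike the contrast was in 3 libraries of different treatment, not how mice vary. Without the library term the counts fell to 71 higher and 50 lower.

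Called genes with a mean of at least 20 CPM over the 6 sums were ranked by fold change. Among the 15 highest were *Aff3*, a nuclear protein of the AF4/FMR2 family, *Cmah*, an enzyme that modifies sialic acid, and *St6galnac3*, a sialyltransferase. *Aff3* stood at 197 CPM in *Tcf7*-expressing cells against 67.4 in matched cells with sIL-2, 168 against 57.1 with the Trikine and 177 against 40.4 with the combination. All 3 *Tcf7*-expressing values were more than all 3 matched values, and the log2 fold change was 1.61 (SE 0.08, edgeR adjusted p = 2.92e-09). How many of all genes tested were set apart in this way was not counted, here or for the genes below. *Cmah* was higher by 1.28 on the log2 scale, *St6galnac3* by 1.40 and *Arl5c*, an ARF-like GTPase, by 1.40. *S1pr1*, *Nt5e* and *Ddx60* are described with their groups. The others were *Ldlrad4* (1.2), *Sntb1* (1.18), *Zhx2* (1.14), *Sh3bp5* (1.13), *Sidt1* (1.11), *Atp10d* (1.08), *Ift80* (1.06) and *Dusp10* (1.05), the last a phosphatase of the p38 and JNK kinases. All 15 were higher in each of the 3 libraries. The 15 lowest at that level were cytotoxic genes, cytokines, chemokines, the inhibitory receptor *Havcr2*, the Fc receptor chain *Fcer1g*, the serpin *Serpinb9b* and the metallothionein *Mt2*.

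**Figure D2:**
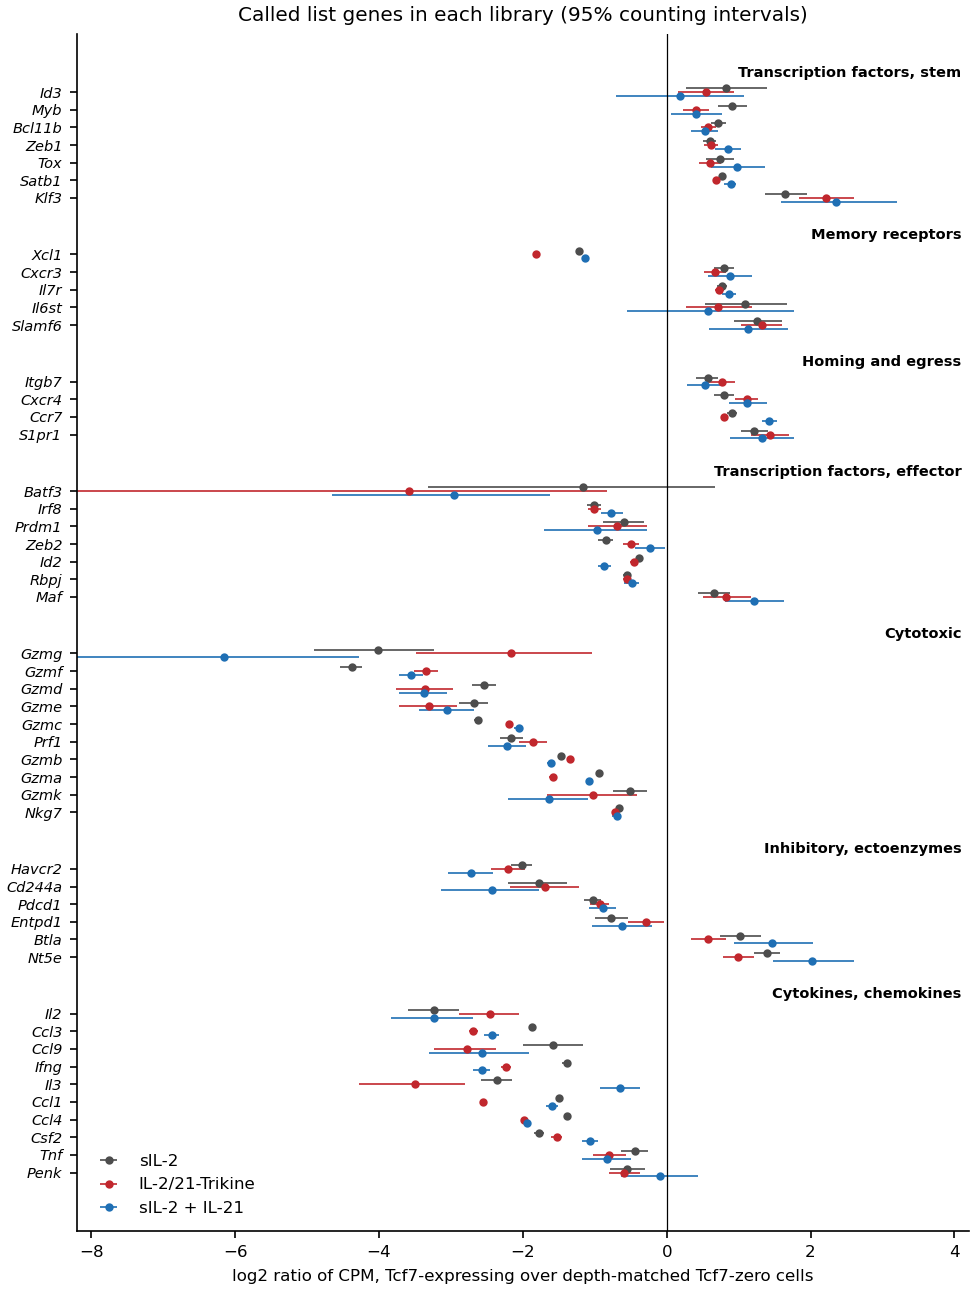
Log2 ratio of summed CPM in *Tcf7*-expressing cells over matched cells for the called genes of the main gene groups, 1 point per library with its exact 95% interval of counting error. The stem factors and homing genes lie to the right of 0 and the cytotoxic genes, cytokines and *Xcl1* to the left in all 3 libraries, and the intervals of *Batf3* (Trikine) and *Gzmg* (combination), which rest on few UMIs, run past the axis.

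Transcription factors of stem-like and memory cells were higher or not called, and none was lower. Of 15 tested, 7 were called higher, with a median log2 fold change of 0.50 against −0.01 over all genes. *Klf3*, a Krüppel-like repressor, was at 33.7 against 10.7 CPM with sIL-2, 25.2 against 5.44 with the Trikine and 20.5 against 4.01 with the combination. The groups did not overlap, and the difference was 1.88 (SE 0.13, edgeR adjusted p = 5.85e-08). *Satb1*, a chromatin organizer of T cells, was at 800, 796 and 825 CPM in *Tcf7*-expressing cells and at 468, 492 and 446 in matched cells (0.72, adjusted p = 2.93e-08). The *Tcf7*-expressing level of *Satb1* was near 800 CPM whatever the treatment. *Tox* (0.65), *Zeb1* (0.60), *Bcl11b* (0.56), *Myb* (0.54) and *Id3* (0.51, adjusted p = 0.025) were also called. *Id3* lost its call without the sIL-2 library (0.40) or the Trikine library (0.56, adjusted p = 0.15), and *Myb* without the sIL-2 library (0.35). *Id3* was at −0.26 where 1 *Tcf7* UMI per 2500 was asked for and at −0.08 without cycling cells. *Bach2* (0.50, just under the minimum), *Klf2* (0.49) and *Foxo1* (0.43) missed the fold minimum, with adjusted p values of 5.68e-05, 6.29e-06 and 6.3e-05. *Lef1*, the other TCF/LEF factor that T cells use, was at 142, 145 and 148 CPM against 116, 88.0 and 102, and its log2 fold change of 0.45 also missed the minimum.

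Genes of homing and tissue exit were higher in 5 of 9 tested, with a median log2 fold change of 0.57, and none was lower. *Ccr7*, the receptor for lymph node chemokines, was at 405 against 216, 716 against 412 and 663 against 247 CPM (0.96, adjusted p = 7.75e-07). Across treatments *Ccr7* overlapped, with 405 CPM in *Tcf7*-expressing cells with sIL-2 and 412 in matched cells with the Trikine. *S1pr1*, the receptor for tissue egress, was at 68.5 against 29.4, 33.2 against 12.3 and 35.9 against 14.4 CPM (1.24, adjusted p = 4.77e-08). *Ccr7* was thus lowest, and *S1pr1* highest, in the *Tcf7*-expressing cells of the sIL-2 library. *Cxcr4* (0.92) and *Itgb7* (0.57) were also called, while *Cd44* (0.03) and *Itgb1* (0.06) were not.

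Of 14 memory and survival receptors tested, 4 were higher and 1 lower (median 0.13). *Il7r*, the IL-7 receptor α chain, was at 386, 433 and 590 CPM in *Tcf7*-expressing cells and at 227, 261 and 324 in matched cells, with no overlap (0.72, edgeR adjusted p = 3.3e-08). *Slamf6*, a SLAM receptor used to mark progenitor cells, was at 22.1, 27.1 and 21.7 CPM against 9.22, 10.8 and 9.91 (1.2, adjusted p = 6.98e-07). *Cxcr3* was higher by 0.70 and *Il6st*, which encodes the gp130 chain, by 0.78. *Il6st* lost its call without the sIL-2 library (0.63). *Xcl1*, a chemokine for cross-presenting dendritic cells that is often listed with progenitor cells, was lower here. It was at 1936, 1468 and 1253 CPM against 4524, 5174 and 2754 (−1.46, adjusted p = 1.6e-08).

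Among partners and feedback genes of TCF-1, 1 cofactor and 1 Wnt feedback gene were called higher. Over all genes tested the share called higher was 3.98%, and these small counts are descriptions only. Of 11 cofactors tested only *Bcl9l*, a β-catenin adaptor, was called (0.72), and the median was −0.00. *Ctnnb1*, which encodes β-catenin, was at a log2 fold change of 0.08. *Axin2*, a feedback inhibitor of Wnt signaling, was at 6.77 against 3.30, 6.12 against 3.70 and 6.85 against 1.89 CPM (0.94, edgeR adjusted p = 0.00251). It was the 1 gene called among 3 Wnt feedback genes tested, and 5 other genes of that list had 0 UMIs in all 6 sums.

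Effector transcription factors were lower in 6 of 13 tested and higher in 1, with a median of −0.29. *Irf8* was at 119, 101 and 126 CPM against 240, 202 and 214 (−1.01, edgeR adjusted p = 1.09e-08). *Prdm1*, which encodes Blimp-1, was lower by 0.74, *Id2* by 0.61, *Zeb2* by 0.65 and *Rbpj* by 0.59 on the log2 scale. *Batf3* was called lower on few UMIs and is given without a fold. *Id2* lost its call without the combination library (−0.49) and *Zeb2* without the sIL-2 library (−0.45). *Maf* was the gene called higher (0.77). *Tbx21*, which encodes T-bet, was not called (−0.29).

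Cytotoxic genes were lower in 10 of 15 tested and none was higher, with a median log2 fold change of −1.26. *Gzmb*, the main granzyme of killer T cells, was at 1223, 1105 and 1144 CPM in *Tcf7*-expressing cells against 3381, 2792 and 3496 in matched cells. The groups lay far apart, at −1.53 (SE 0.04, edgeR adjusted p = 1.26e-12). *Prf1*, which encodes the pore protein perforin, was at 33.5, 22 and 35.9 CPM against 150, 79.8 and 167 (−2.13, adjusted p = 1.8e-11). *Gzmf* showed the largest decrease of the genes named by rank, from 615, 238 and 903 CPM to 29.5, 23.4 and 77.0 (−3.84, adjusted p = 1.35e-11). *Gzme* (−2.97), *Gzmd* (−2.97) and *Gzmc* (−2.35) belong to the same granzyme cluster, whose related sequences may share reads. *Gzma* was lower within every library (−1.26), at 1940 against 3732, 409 against 1224 and 2114 against 4462 CPM, but the *Tcf7*-expressing cells of the sIL-2 and combination libraries lay above the matched cells of the Trikine library. *Nkg7*, a granule protein, was lower by 0.76 and *Gzmk* by 0.88 on the log2 scale. *Fasl* (0.01) and *Lamp1* (0.19) were not called.

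Inhibitory receptors did not move as a group: of 12 tested, 4 were lower and 2 higher, with a median of −0.22. *Havcr2*, which encodes TIM-3, was at 41.2, 14.3 and 23.1 CPM against 167, 65.7 and 153, with no overlap (−2.28, SE 0.09, edgeR adjusted p = 1.43e-10). *Pdcd1*, which encodes PD-1, was at 77.0, 55.6 and 88.3 CPM against 158, 106 and 164 (−1.02, adjusted p = 7.6e-09). *Cd244a* was lower by 1.95 and *Entpd1*, the ectoenzyme CD39, by 0.62 on the log2 scale. *Entpd1* lost its call without the sIL-2 library (−0.46). *Nt5e*, the ectoenzyme CD73, went the other way, from 27.4, 20.1 and 8.26 CPM to 71.9, 39.97 and 33.5 (1.23, adjusted p = 1.38e-06). *Btla* was also higher (0.82). *Lag3* (−0.39), *Tigit* (0.11) and *Ctla4* (0.09) were not called. Of 7 killer lectin-like receptors tested, 3 were lower, among them *Klre1* (−0.70), and the median was −0.09.

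Cytokine and chemokine genes were lower in 10 of 12 tested, with a median of −1.89. *Ifng*, the macrophage-activating interferon, was at 298, 127 and 159 CPM in *Tcf7*-expressing cells and at 783, 600 and 947 in matched cells (−2.09, edgeR adjusted p = 3.3e-08). *Il2* was at 6.34, 4.53 and 7.08 CPM against 59.9, 25 and 67.0 (−3.05, adjusted p = 1.97e-10). *Ccl3*, an inflammatory chemokine, was at 380, 194 and 217 CPM against 1386, 1253 and 1170 (−2.38, adjusted p = 2.57e-10). These genes did not overlap between the classes, a trait that was not counted over all genes tested. *Ccl4* (−1.83), *Ccl1* (−1.94), *Il3* (−1.95), *Csf2* (−1.54) and *Tnf* (−0.71) were called as well. *Ccl5*, a further chemokine of the list, was not (0.17), at 3994, 1487 and 2105 CPM against 3261, 1296 and 1835. Of 12 genes of recent antigen signaling, 5 were lower and none higher (median −0.25), among them the costimulatory receptor *Tnfrsf9* (−0.73) and *Cd40lg* (−0.80). *Nr4a1* (0.11) and *Egr1* (−0.06) were not called. The receptors of the cytokines under study, *Il2ra* (−0.11) and *Il21r* (0.06), were not called either, and 1 of 17 genes in the list of cytokine receptors and STAT feedback was, *Socs3* (0.65).

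Interferon-stimulated genes were higher in 15 of 19 tested and none was lower, with a median of 0.64. These genes are switched on by type I interferon, and many carry the interferon-stimulated response element in their promoters. *Ddx60*, an RNA helicase, was at 42.6, 33.2 and 24.6 CPM against 17.0, 17.2 and 4.96 (1.18, adjusted p = 9.46e-06). *Ifit1*, which binds foreign RNA, was at 72.1, 37.6 and 20.1 CPM against 40.4, 20.03 and 8.73 (0.83, adjusted p = 2.9e-06). Across treatments *Ifit1* overlapped, since its level was highest with sIL-2 and lowest with the combination in both classes. *Cxcl10*, the ligand of CXCR3, was higher in 2 libraries (150 against 51.7 and 116 against 72.3 CPM) and not in the combination library (47.9 against 57.4). Its call was lost without the sIL-2 library (0.32). *Ifit3* and *Ifit3b* are near-identical copies whose reads may be split between them, and *Ifit3b* lost its call without the sIL-2 library (0.16) or the combination library (0.50). *Ifi27l2a* lost its call without the combination library (0.36) and *Oasl1* without the sIL-2 library (0.93). *Rsad2*, which encodes the antiviral enzyme viperin, was higher by 0.60 on the log2 scale. *Isg15* (0.34) and *Bst2* (0.09) were not called.

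The promoters of these genes are shown because many of them share letters there that the choice of cells did not use. The motif searched was GAAANNGAAA on both strands, a form of the response element, in RefSeq promoters of 250 bases before to 50 after each gene start (build GRCm38.p6). The windows below hold 40 bases on the gene's strand, 5′ to 3′, with the motif, or its reverse complement TTTCNNTTTC, in capitals. *Ddx60* lies at chr8:61928047-61928086 on the plus strand, *Ifit1* at chr19:34640789-34640828 on the plus strand, *Cxcl10* at chr5:92349078-92349117 on the minus strand and *Rsad2* at chr12:26456548-26456587 on the minus strand.
Ddx60: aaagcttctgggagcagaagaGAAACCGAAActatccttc
Ifit1: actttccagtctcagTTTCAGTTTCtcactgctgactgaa
Cxcl10: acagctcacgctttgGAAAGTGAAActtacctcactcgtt
Rsad2: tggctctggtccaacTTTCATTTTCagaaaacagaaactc
The motif stood in 51 of 350 called-higher genes with a promoter entry (14.6%), in 8 of 405 called-lower genes (1.98%) and in 354 of all 8885 tested genes (3.98%). Of the called genes of the interferon list, 7 of 11 with a promoter entry held it (63.6%). As many genes of this kind carry the element, that share describes the list and not the cells. Without the genes of the interferon list it stood in 44 of 339 called-higher genes (13.0%). That list holds 20 genes, and interferon-stimulated genes outside it were not removed. In all 27025 promoters of the table the share was 3.99%. A TCF/LEF-like motif, CTTTGA on both strands, stood in 20% of called-higher genes, 12.6% of called-lower genes, 14.2% of tested genes and 18.2% of all promoters. Such matches describe letters in these windows and not bound sites.

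**Figure D3:**
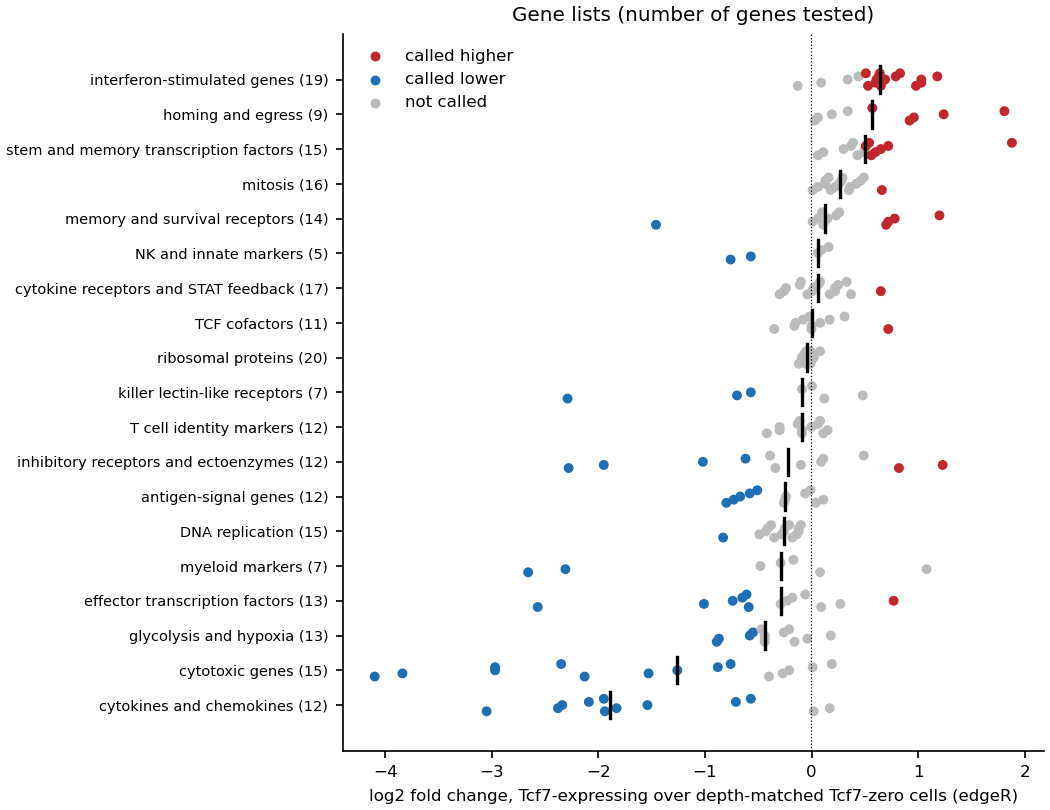
Log2 fold change (edgeR) of each tested gene by gene list, with the number tested in brackets, the called genes colored and a black bar at the median of each list. Interferon-stimulated genes (15 of 19 higher, median 0.64) lie to the right, and cytotoxic genes (median −1.26) and cytokines (median −1.89) to the left, with 10 genes called lower in each.

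At matched depth, the counts of called cell cycle genes stand beside shares over all genes tested of 3.98% higher and 4.34% lower. Of 16 mitosis genes, 1 was called higher, *Cenpf* (0.66), all 16 fold changes were positive and the median was 0.27. *Cenpf* was at −0.21 against all cells with 0 *Tcf7* UMIs, unmatched on depth. *Mki67* was at 101, 167 and 161 CPM against 71.6, 108 and 114, and its log2 fold change of 0.49 missed the minimum. Of 15 replication genes, 1 was lower, *Ung* (−0.83), 0 fold changes were positive and the median was −0.26. Glycolysis and hypoxia genes were lower in 4 of 13 tested (median −0.44): *Bnip3* (−0.87), *Eno1* (−0.58), *Pgam1* (−0.55) and *Vegfa* (−0.89). Of these, *Bnip3* alone kept its call when the sIL-2 library was left out, where *Eno1* was at −0.50, *Pgam1* at −0.49 and *Vegfa* at −0.58. *Mt1* and *Mt2*, zinc-binding metallothioneins, were lower by 1.77 and 1.82 on the log2 scale. *Mt1* was at 46.5, 71.3 and 89.2 CPM against 132, 189 and 448. None of 20 ribosomal protein genes was called, with a median of −0.04, and none of 12 T cell identity genes, with a median of −0.09. Of the 12 identity genes 4 had positive fold changes. *Cd8a* was lower at −0.42 (edgeR adjusted p = 8.39e-06) and missed the fold minimum, with ratios of −0.38, −0.38 and −0.30 in the 3 libraries.

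Markers of other cell types were scarce in both classes. At least 3 UMIs of such markers were found in 0.696%, 0.416% and 0.917% of *Tcf7*-expressing cells and in 1.19%, 0.583% and 0.459% of matched cells. Of 7 myeloid markers tested, 2 were lower and none higher; the summed level was 126, 112 and 161 CPM against 292, 176 and 400, with *Cst3* the most abundant. *Fcer1g*, at 30.3, 12.8 and 53.6 CPM against 156, 54.1 and 253 (−2.31), made up most of that difference. *Fcer1g* is also used by innate-like CD8+ T cells. *Il1b* was called lower on the sIL-2 library alone (0.169 against 16.3 CPM). The defining genes *Csf1r*, *C1qa* and *Adgre1* had too few UMIs to be tested. Of 2 B cell markers tested, *Ighm* was higher, at 32.6, 57.2 and 46.5 CPM against 10.7, 21.8 and 8.97 (1.55, edgeR adjusted p = 2.17e-07), while *Cd79b* was not called (0.07) and *Ms4a1* and *Cd79a* had too few UMIs to be tested. Of 5 natural killer markers 2 were lower, *Nkg7* and *Klrb1c*, and of 2 melanoma markers and 3 CD4 and regulatory T cell markers none was called. No erythroid marker could be tested. Their summed level was 747 CPM in the matched cells of the sIL-2 library and at most 1.69 in the other sums, because 1 matched cell held 8792 hemoglobin UMIs of 10313. Leaving that cell out changed no call among the genes of the lists and the genes named by rank.

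Measures of RNA quality differed slightly between the classes. Mitochondrial UMIs made up 1.34%, 1.47% and 1.48% in *Tcf7*-expressing cells against 1.26%, 1.29% and 1.45%. *Malat1*, a nuclear RNA, was at 5870, 4670 and 4140 CPM against 5240, 3950 and 3540. *Neat1*, also a nuclear RNA, was at 28, 20.9 and 22.4 CPM against 30.5, 17.1 and 31.6, a higher level with the Trikine and a lower one in the other libraries. Longer genes tended to be higher: by quartile of gene length, from short to long, the median log2 fold change was −0.09, −0.03, 0.01 and 0.07, and the share called higher was 2.67% in the shortest and 6.43% in the longest. Of the 15 highest-ranked genes named above 11 lay in the longest quartile, and of the 15 lowest 11 lay in the shortest and 0 in the longest. Length here is that of the whole gene, introns included. The part of these measures in the results above was not tested.

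To see how often markers met in the same cell, detection was counted after thinning to 5000 UMIs. *Ccr7* was detected in 38.1% (exact binomial 95% interval 35.1 to 41.2) of *Tcf7*-expressing cells with sIL-2, 65.7% (62.9 to 68.4) with the Trikine and 59.6% (54.9 to 64.3) with the combination. In matched cells the shares were 26.5%, 46.4% and 31.2%. *Ccr7* was thus detected more often in *Tcf7*-expressing cells of each library, and in both classes most often with the Trikine. Before thinning, at the depths given above for the paired cells, it was detected in 45.8% against 33.7% with sIL-2, 71.3% against 54.6% with the Trikine and 63.3% against 38.5% with the combination. *Pdcd1* and *Havcr2* were both detected in 3.08%, 0.999% and 2.29% of *Tcf7*-expressing cells and in 16.0%, 6.74% and 18.8% of matched cells. Before thinning these shares were 9.05% against 30.0% with sIL-2 and 3.41% against 16.0% with the Trikine. The pair of inhibitory receptors was therefore less often detected in *Tcf7*-expressing cells of every library. *Gzmb* was detected in 77.8%, 83.0% and 86.2% of *Tcf7*-expressing cells and in 87.1%, 89.3% and 94.3% of matched cells. Free *Gzmb* RNA was not measured, and its part in these shares was not tested. At 5 or more *Gzmb* UMIs the shares were 38.8%, 40% and 40.6% against 59.3%, 65.4% and 74.5%. *Il7r* was detected in 56.1%, 67.6% and 74.3% against 44.6%, 54.9% and 60.6%. *Slamf6* was detected in 8.55%, 10.1% and 9.40% against 3.78%, 4.83% and 3.67%, and *Havcr2* in 12.5%, 6% and 5.28% against 37.9%, 20.6% and 35.3%.

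**Figure D4:**
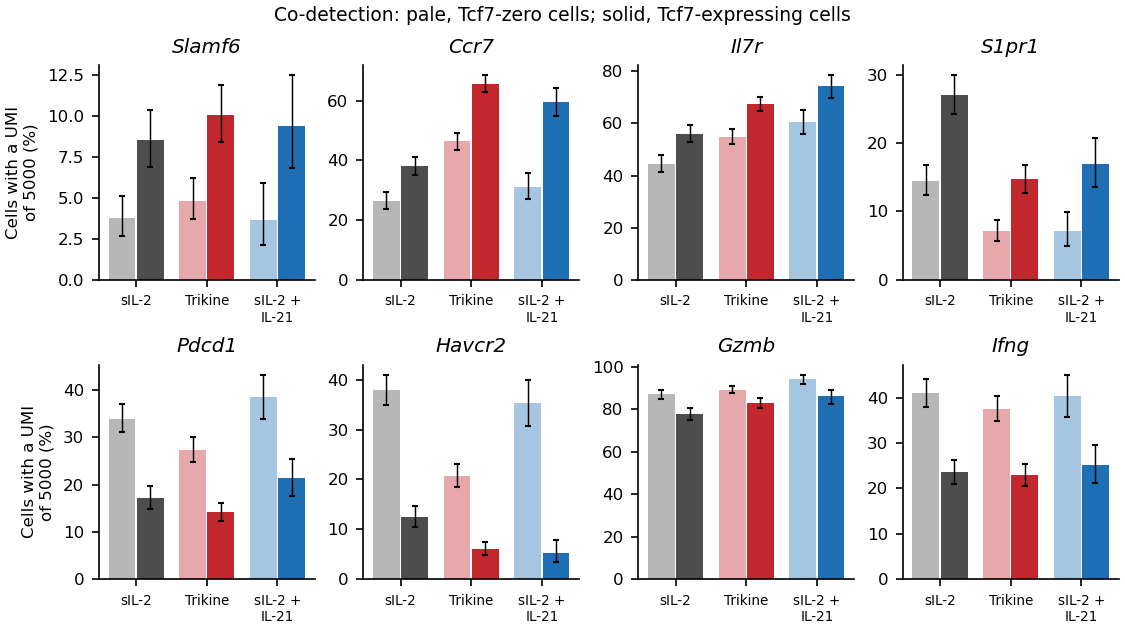
Percent of cells with a UMI of each gene after thinning to 5000 UMIs, in matched (pale) and *Tcf7*-expressing (solid) cells of each library, with exact binomial 95% intervals. *Slamf6*, *Ccr7*, *Il7r* and *S1pr1* are detected more often, and *Pdcd1*, *Havcr2*, *Gzmb* and *Ifng* less often, in *Tcf7*-expressing cells of each library, and *Gzmb* is detected in most cells of both classes.

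Cells of 5000 to 10000 UMIs were next ordered by their *Tcf7* level, from 0 UMIs through cells with some *Tcf7* that missed the rule to chosen cells below and above the median score. These classes were set by *Tcf7* and are described without a test. The summed cytotoxic genes stood at 7987, 6196, 5889 and 4878 CPM along these steps with sIL-2, at 6335, 4300, 3644 and 3206 with the Trikine, and at 12290, 8030, 6629 and 4995 with the combination. They were lower at each step in each library. Stem and memory transcription factors were higher at each step, from 3412 to 4281, from 2838 to 3827 and from 2548 to 4154 CPM. *Slamf6* in the cells above the median score was at 26.3, 37.6 and 30.9 CPM, against 10.2, 13.3 and 9.75 in cells with 0 *Tcf7* UMIs. It was not ordered between these ends, at 8.62 CPM in cells with some *Tcf7* below the rule with sIL-2. With the Trikine it was at 19.5 in those cells and at 17.5 in chosen cells below the median score. The summed cytokines were not ordered throughout either: with the Trikine they stood at 3829 CPM below the median score and 4837 above it. Cells with some *Tcf7* that missed the rule thus lay between the classes compared above, and the 0-UMI class may hold cells whose *Tcf7* was not sampled at this depth.

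**Figure D5:**
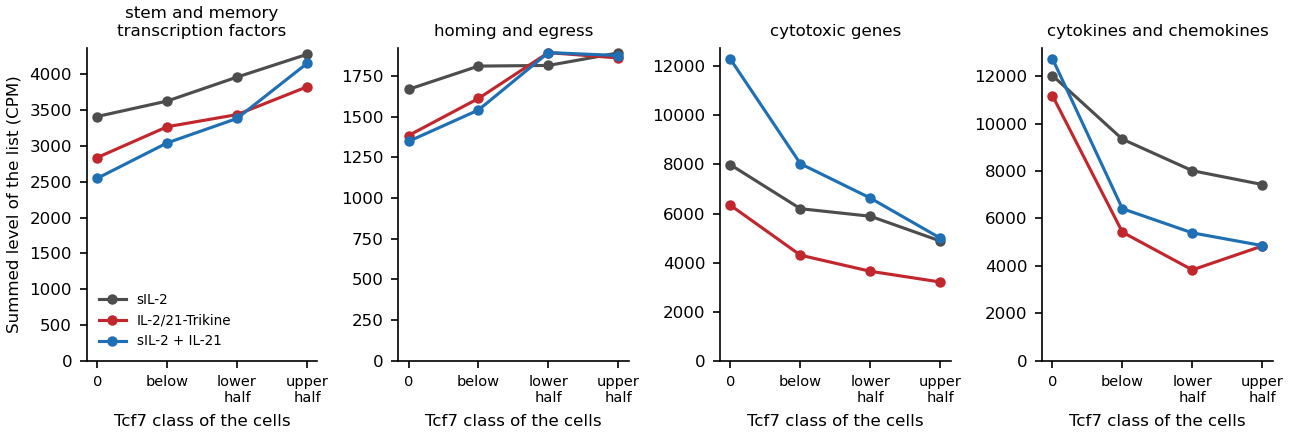
Summed CPM of 4 gene lists in cells of 5000 to 10000 UMIs, in cells with 0 *Tcf7* UMIs, with some below the rule, and in chosen cells of the lower and upper part of the scores, with 1 line per library. Cytotoxic genes step down and stem and memory transcription factors step up with *Tcf7* in all 3 libraries.

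*Tcf7*-expressing cells were then compared between treatments, which rests on 1 library each and has no test. Among genes of at least 50 CPM, a log2 ratio of at least 1 in size was found for few. With the Trikine over sIL-2, 4 of 3052 genes (0.131%) were higher and 10 (0.328%) lower. With sIL-2 over the combination, 11 of 3069 (0.358%) were higher and 7 (0.228%) lower. With the Trikine over the combination, 1 of 2990 (0.0334%) was higher and 8 (0.268%) lower. Over these genes the log2 ratio had a median of −0.11 with the Trikine over sIL-2, and with TMM scaling of the sums the counts of that comparison were 10 higher and 6 lower. In cells of at least 10000 UMIs they were 11 and 19, those of sIL-2 over the combination 22 and 20, and those of the Trikine over the combination 0 and 9. The comparisons share libraries, so they are not independent, and intervals below cover counting error only.

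Compared with sIL-2, the *Tcf7*-expressing cells of the Trikine library had more RNA of proliferation genes. *Pclaf*, a PCNA-binding factor, was at 234 against 98.0 CPM, a log2 ratio of 1.26 (95% interval 1.16 to 1.36), and *Stmn1*, a tubulin regulator, at 310 against 143 CPM. All 15 replication genes and all 16 mitosis genes had positive ratios, with medians of 0.82 and 0.79. The same held in matched cells, with medians of 0.98 and 0.74. *Gzma* was lower in the Trikine library, at 409 against 1940 CPM (−2.24, −2.29 to −2.20), as were *Ccl5* (−1.43) and the p53 target *Cdkn1a* (−1.23). In matched cells these ratios were −1.61, −1.33 and −1.27. Of 19 interferon-stimulated genes, 0 had a positive ratio in *Tcf7*-expressing cells (median −0.63) and 3 in matched cells (median −0.40). *Ccl1* and *Ifng* were at −1.41 and −1.23 in *Tcf7*-expressing cells and at −0.36 and −0.38 in matched cells, a difference that was not tested. *Ccr7* was higher by 0.82 (0.77 to 0.87) and *S1pr1* lower by 1.05 on the log2 scale, and in matched cells their ratios were 0.93 and −1.25. *Lef1* (0.03, −0.07 to 0.12) and *Satb1* (−0.01, −0.05 to 0.03) had intervals that held 0 on unscaled CPM, where the median over all genes was −0.11. Their ratios in matched cells were −0.40 and 0.07. Of the 15 stem and memory transcription factors, 2 had positive ratios in *Tcf7*-expressing cells (median −0.16) and 4 in matched cells (median −0.21).

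Interferon-stimulated genes were higher with sIL-2 than in the combination library. All 19 had positive ratios in *Tcf7*-expressing cells, with a median of 1.11, and the median in matched cells was 1.69. *Ifit3* was at 94.7 against 25.5 CPM (1.89, 1.61 to 2.19). *Cxcl10*, at 150 against 47.9 CPM (1.65, 1.44 to 1.86), differed between these libraries in the *Tcf7*-expressing cells, whereas its ratio in matched cells was −0.15 (−0.37 to 0.07), and the difference of the ratios was not tested. *Tnfsf11*, which encodes RANKL, was lower with sIL-2, at 142 against 356 CPM (−1.33), as were *Nrgn* (−1.61) and the serpin *Serpinb9b* (−1.50). In matched cells these ratios were −0.90, −0.98 and −0.44. *Gzmf* was lower too (−1.38), but in cells of at least 10000 UMIs its ratio was 0.50.

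Compared with the combination, the *Tcf7*-expressing cells of the Trikine library differed most in *Klra5*, a killer lectin-like receptor of the Ly49 family. It was at 10.3 against 93.5 CPM (−3.19, −3.48 to −2.90), and at 44.2 against 184 in matched cells. *Gzma* was at 409 against 2114 CPM (−2.37) and *Tnfsf11* at 128 against 356 CPM (−1.47), with ratios of −1.87 and −0.90 in matched cells. *Cxcl10* was the gene past the higher limit, at 116 against 47.9 CPM (1.28, 1.06 to 1.49). In cells of at least 10000 UMIs its ratio was 2.20, but its mean over both libraries was under the minimum of 50 CPM, so no gene was counted higher there. Interferon-stimulated genes were again all positive, with a median of 0.55, against 1.2 in matched cells.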

How the data were processed

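Mouse CD8+ T cells sorted from tumors were profiled with 10x 3′ Gene Expression chemistry. The deposited values are UMI counts per gene and cell, which the authors made with Cell Ranger 9.0.0 (per the file headers, 33696 genes). The submitters' processing notes name the build mm10, and the study's methods name GRCm39, so no coordinate was taken from the counts. The deposited matrices held 7805, 13350 and 9871 barcodes with 132104871, 167782625 and 168627825 UMIs. The study's limits (500 to 120000 UMIs, 20% mitochondrial) leave 30857 cells. The minimum of 5000 UMIs used here leaves 26899. Libraries shared 31, 18 and 43 barcodes, none of them among the chosen cells. Scrublet (scanpy 1.11.5) called 2 doublets and had not worked, so no doublet was removed.

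UMIs were summed over chosen and matched cells and fitted with edgeR 4.0.16 (TMM scaling, library term, quasi-likelihood test), with DESeq2 1.42.0 as an alternative. Unscaled, the median log2 ratio of all genes was 0.05, 0.07 and 0.03 in the 3 libraries, and fitted it was −0.01. Named by rank were the 15 highest and 15 lowest called genes of at least 20 CPM, and per pair of libraries the 5 highest and 5 lowest of at least 50 CPM, without receptor segments and unnamed models. Genes of the lists could be named too, and a few of them are not reported here. The cells and lists were chosen with earlier results of these data known. Motifs were read from RefSeq promoters, of which 8885 matched tested genes. Alternatives covered scaling, filters, matching, thresholds, depth and each library left out.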

Additional observations from a re-analysis of the deposited data

Results flagged for a closer look

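In 8 genes of the lists, and in the nuclear RNA *Neat1*, the log2 ratio of *Tcf7*-expressing over matched cells pointed one way in 1 library and the other way in another, each beyond its counting interval. With 1 library per treatment the difference itself was not tested. The ratios are unscaled, and their median over all genes tested was 0.05 with sIL-2, 0.07 with the Trikine and 0.03 with the combination. *Areg*, which encodes the growth factor amphiregulin, was at 0.99 with the Trikine and −3.46 with the combination. *Tnfsf8*, which encodes CD30 ligand, was at 0.72 with the combination and −0.17 with sIL-2. *Cdc45*, a replication factor, was at 0.79 with the combination and −0.30 with the Trikine. *Ikzf2*, which encodes Helios, was at 0.27 with the Trikine and −0.46 with the combination. The ratios of *Klrd1* were 0.14 with the Trikine, 0.15 with the combination and −0.10 with sIL-2. Those of *Stat3* were 0.06, 0.16 and −0.14 in the same order. *Trbc2* was at 0.02 with the combination, −0.11 with sIL-2 and −0.07 with the Trikine, and *Rps19* was at 0.04 with the Trikine and −0.03 with sIL-2. The positive ratios of *Trbc2* and *Rps19*, and that of *Stat3* with the Trikine, lay below the median of their library. Relative to a typical gene of that library they were therefore not higher. *Neat1* was at 0.29 with the Trikine and −0.50 with the combination.

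Cells under 5000 UMIs were not used for the comparisons but held *Tcf7* too. Its level there was 97.5 CPM with sIL-2 (108 UMIs), 93.8 with the Trikine (450 UMIs) and 97.6 with the combination (240 UMIs), above the 60.0, 58.9 and 20.6 CPM of the kept cells.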

How the results depend on the processing

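The counts of genes called higher and lower at matched depth were 461 and 503. DESeq2 gave 279 and 297, of which 266 and 288 were among those genes. Without the replicate block (no library term) they were 71 and 50. Against all cells with 0 *Tcf7* UMIs, unmatched on depth, they were 1151 and 1302, without a fold minimum 1412 and 1716, and without interferon-responding cells 100 and 123, where 92, 103 and 46 chosen cells were left. Leaving out 1 library at a time gave 403 to 476 higher and 390 to 512 lower, with the remaining libraries assumed to vary alike. A second draw of the matching kept 433 and 476 of the calls.

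The shares with sIL-2, the Trikine and the combination were 9.19%, 7.36% and 3.60% after thinning, 8.02%, 7.18% and 2.03% in cells of at least 10000 UMIs, 10.3%, 7.53% and 3.14% with at least 3 *Tcf7* UMIs, and 4.82%, 3.07% and 1.56% at 1 per 2500 UMIs. They were 14.7%, 12.8% and 6.93% without cycling cells and 6.77%, 6.39% and 1.42% without interferon-responding cells. The combination library was lowest in each. The ratio of the Trikine to sIL-2 was 0.896 at 10000 UMIs, 0.731 with 3 UMIs, 0.636 at 1 per 2500 and 0.944 without interferon-responding cells. That of sIL-2 to the combination was 3.94, 3.28, 2.12 (without cycling cells) and 4.78, and that of the Trikine to the combination was 2.05 (thinned), 3.53, 1.96 (1 per 2500), 1.85 (without cycling cells) and 4.51. Between libraries at 10000 UMIs, 11 genes were higher and 19 lower with the Trikine over sIL-2. These counts were 22 and 20 with sIL-2 over the combination, and 0 genes were higher with the Trikine over the combination. Over all chosen cells, TMM factors gave 10 higher and 6 lower with the Trikine over sIL-2.

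Among called genes of the lists and of the rank rule, signs reversed for *Id3* (−0.26 at 1 per 2500, −0.08 without cycling cells), *Ifit3b* (−0.33 at 1 per 2500) and *Cenpf* (−0.21 unmatched). Inside the chosen cells, *Gzmf* reversed with sIL-2 over the combination (0.50 at 10000 UMIs). More reversed over all calls: 445 of 461 higher genes kept direction unmatched. Without interferon-responding cells, 234 of 247 higher and 288 of 303 lower genes kept it. The cause was not tested. Of 101 called genes of the lists and of the rank rule, 66 lost their call without the block. Without interferon-responding cells 25 lost it, 51 kept it and the others were not tested. With DESeq2 it was lost by 14 and at 10000 UMIs by 10. With the sign kept, it was lost by 12 at 1 per 2500, 7 unmatched and 5 without cycling cells. In these last settings a further 2, 1 and 1 genes reversed sign. Leaving out sIL-2, the Trikine or the combination cost 12, 6 and 4. *Klf3*, *Gzmb*, *Havcr2* and *Pdcd1* kept direction and call under every alternative run. *Ccr7* and *Il7r* lost theirs without the block only, *Slamf6* without interferon-responding cells only, and *S1pr1* under both. Depth limits the choice itself: most chosen cells rest on few *Tcf7* UMIs.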
